A study of Mus musculus with 20 samples.

Results

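The 5 genes studied here act in adhesion and signalling at the junction between motor nerve and muscle, and were followed across all 20 arrays: Lrp4, Ncam1, Ache, Etv5 and Dach2. They were chosen by name, with earlier results of these data known. Every probe set whose platform annotation gives 1 of these symbols was taken, dim ones included. That gave 5 probe sets, 1 for each gene, of the 10748 in the deposited table, where those with a single symbol cover 6603 genes. The arrays measured RNA of female C57BL/6 mice aged 14 weeks in groups of 4. The first pair of groups is gastrocnemius, a calf muscle of the hind limb, and triceps, in the fore limb, of mice with a human SOD1 transgene carrying the G93A mutation, at a symptomatic stage. These mice, called SOD1 here, are a model of amyotrophic lateral sclerosis. The next group is gastrocnemius of mice whose sciatic nerves had been crushed with forceps for 30 s at 12 weeks of age, taken 2 weeks later as a control for denervation; the labels give no transgene for them, and crushed nerves can regrow. Non-transgenic (NTg) mice gave both muscles as controls. No sham-operated group was analysed, the labels name no promoter for the transgene, and SOD1 mice carry the transgene in the whole body, so a change cannot be assigned to nerve or to muscle.

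At the neuromuscular junction the nerve releases agrin, which binds the receptor LRP4 on the muscle fibre. LRP4 activates the kinase MuSK, and the scaffold protein rapsyn then gathers acetylcholine receptors under the nerve ending. Innervated fibres restrict the genes of the synapse to the few nuclei under the nerve ending, and a fibre that loses its nerve expresses receptor subunits and the adhesion molecule NCAM along its length. Acetylcholinesterase, the product of Ache, ends the signal by splitting acetylcholine. Etv5 encodes an ETS transcription factor that has been placed downstream of neuregulin at the junction, and Dach2 a corepressor known in mouse muscle to restrain myogenin, the myogenic factor that drives receptor genes after denervation.

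All 5 probe sets were dim. Their means over the 20 arrays lay between 4.33 and 5.57 on the log2 scale, under the mark of 5.88 below which the lowest 30% of probe sets lie. MAS5, the Affymetrix algorithm behind these signals, sets no floor, so values in this range carry much noise and no detection calls were used. Each difference is one of mean log2 signal between groups, given with its standard error (SE) in limma, fitted to all probe sets and n = 4 in each group. A change was called at an adjusted p under 0.05 (Benjamini-Hochberg over all 10748 probe sets). In whole muscle, fewer cells of a type and less RNA per cell cannot be told apart.

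Array medians lay between 6.61 and 6.76, and the mean Pearson's r of an array with the rest of its group ranged from 0.917, in crush replicate 4, to 0.972. The 12 fibre markers set for the check of tissue, such as the creatine kinase gene Ckm and the actin gene Acta1, were all measured. Acta1 was at 10.99 or above on every array, and Ckm was at 7.27 in SOD1 triceps replicate 2, against 10.95 to 11.94 in the other SOD1 triceps arrays and 11.24 to 12.31 in NTg triceps. The receptor subunit gene Chrna1 set single arrays apart within their groups. It was at 11.34 in crush replicate 4 and between 6.97 and 7.40 in crush replicates 1 to 3. It was at 11.03 in SOD1 triceps replicate 4 and between 7.59 and 8.86 in SOD1 triceps replicates 1 to 3. In SOD1 gastrocnemius it was at 8.57 in replicate 1 and between 10.23 and 10.85 in replicates 2 to 4. Several results that rest on these arrays are given with and without them. One label field of NTg triceps replicate 4 names the other muscle. Its signal of Mbp, a myelin gene, was 6.37, within the 5.97 to 6.65 of NTg triceps and below the 8.72 to 9.23 of NTg gastrocnemius.

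Ache is the member for which the regulatory sequence is shown, since its signal in SOD1 triceps lay below that of NTg triceps on every array. The stretch is the 250 bases before the RefSeq start of Ache on the plus strand (chr5:137288004-137288253, GRCm38.p6). Capitals mark 1 match to CANNTG, the E-box pattern of helix-loop-helix factors, and 4 matches to GGGCGG, the GC box bound by Sp1. The CANNTG match reads CACGTG, and 2 of the GC boxes overlap.

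Ache: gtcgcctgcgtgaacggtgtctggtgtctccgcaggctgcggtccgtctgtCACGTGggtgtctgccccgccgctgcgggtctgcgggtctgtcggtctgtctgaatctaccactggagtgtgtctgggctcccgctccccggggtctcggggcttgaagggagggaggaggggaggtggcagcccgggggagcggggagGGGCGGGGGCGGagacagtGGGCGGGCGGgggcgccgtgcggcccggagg

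Among 32851 windows of 250 bases before RefSeq starts, 66.2% held CANNTG, 32.7% held GGGCGG or its reverse complement, and 12% held CCGGAA or its reverse complement TTCCGG, the N-box core bound by ETS factors. The Ache window held no CCGGAA on either strand, and that says nothing about the factors. RefSeq windows were matched for 3 of the 5 genes. One window of Etv5 held 2 E-boxes and 3 GC boxes and the other held 0 of each, and of the Dach2 windows one held 1 E-box and the other 1 GC box.

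**Figure D1:**
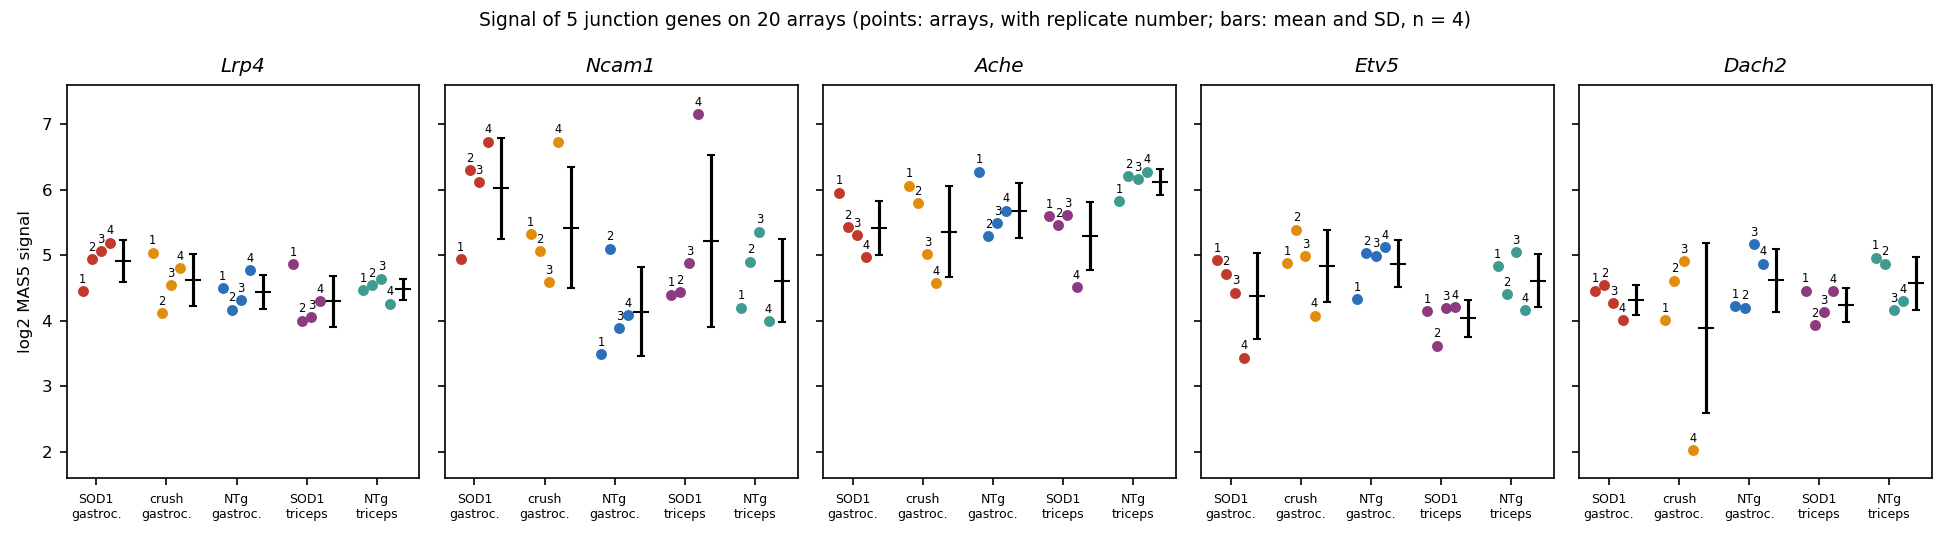
Log2 MAS5 signal of the 5 genes on each of 20 arrays; points are arrays labelled with the replicate number, and bars give the mean and SD of 4 arrays. Ncam1 reaches 6.73 in SOD1 gastrocnemius, 6.73 in crush and 7.15 in SOD1 triceps, each time in replicate 4, while Lrp4 stays between 4.00 and 5.19 on all arrays.

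Lrp4, the agrin receptor that also signals back to the nerve ending, showed no called difference in any comparison. Its log2 signals were 4.45, 4.94, 5.06 and 5.19 in SOD1 gastrocnemius and 5.04, 4.12, 4.54 and 4.80 in crushed gastrocnemius, against 4.50, 4.17, 4.31 and 4.77 in NTg gastrocnemius. The groups overlapped, with SOD1 replicates 2 to 4 above every NTg array and SOD1 replicate 1 among them. The SOD1 difference was 0.47 (SE 0.25, 95% interval -0.05 to 1.0, limma adjusted p = 0.242), which puts its upper bound at 2.0-fold. After crush it was 0.19 (95% interval -0.34 to 0.71, adjusted p = 0.758). In triceps Lrp4 was at 4.86, 4.00, 4.06 and 4.30 in SOD1 mice, against 4.47, 4.54, 4.64 and 4.26 in NTg mice. The highest and the lowest of these 8 values were both in SOD1 triceps, and the difference was -0.17 (95% interval -0.70 to 0.36, adjusted p = 0.771).

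Ncam1, the neural cell adhesion molecule that appears over the whole surface of denervated fibres, rose in SOD1 gastrocnemius. Its log2 signals were 4.94, 6.29, 6.11 and 6.73 in SOD1 gastrocnemius, against 3.49, 5.10, 3.89 and 4.09 in NTg gastrocnemius. SOD1 replicates 2 to 4 lay above every NTg array, and SOD1 replicate 1 lay between the highest NTg array and the other 3, so the groups overlapped. The means were 6.02 ± 0.77 in SOD1 and 4.14 ± 0.68 in NTg gastrocnemius (SD, n = 4 each). The log2 difference was 1.88 (SE 0.56, limma adjusted p = 0.0404), a 3.67-fold rise with a 95% interval of 1.64 to 8.24. Ncam1 was thus 1 of the 5 members called in this comparison, where 9.13% of all probe sets were called and 4.88% were called higher.

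The Ncam1 call stood close to the threshold. It was lost when SOD1 replicate 2, 3 or 4 or NTg replicate 1, 3 or 4 was left out (adjusted p = 0.0997, 0.09, 0.142, 0.108, 0.095 and 0.0866), while the difference stayed between 1.64 and 2.24 whichever of the 20 arrays was left out. It was also lost with signals under 5 raised to 5 (difference 1.01, adjusted p = 0.181) and with no intensity trend in the variance (adjusted p = 0.0516). Without SOD1 replicate 1 the difference was 2.24 (limma adjusted p = 0.017).

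**Figure D2:**
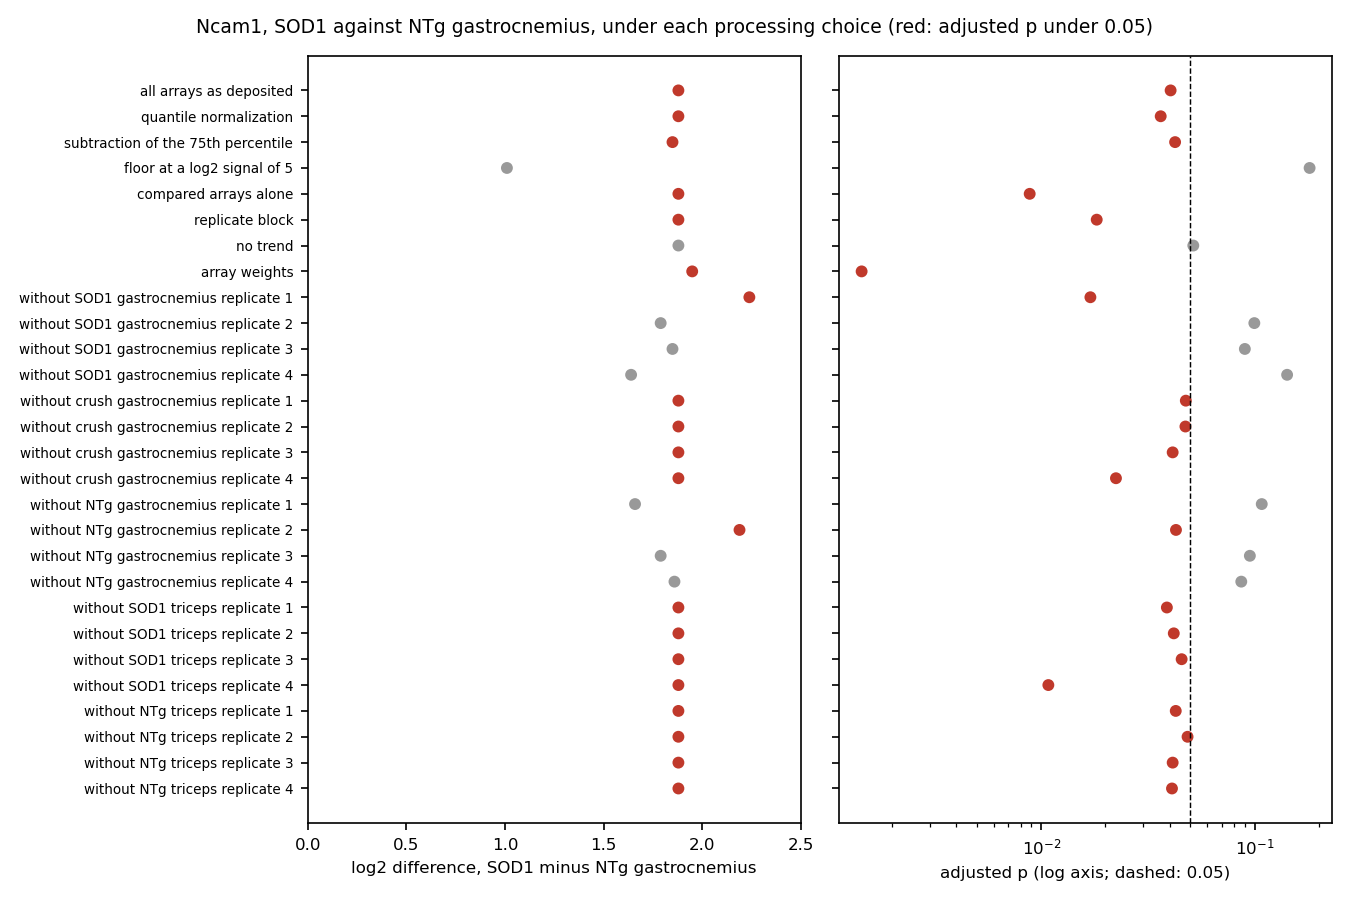
Ncam1 in SOD1 against NTg gastrocnemius under each processing choice: the log2 difference on the left and the adjusted p on a log axis on the right, with red for an adjusted p under 0.05. The difference lies at 1.64 or above except with a floor at 5, where it is 1.01, and the adjusted p crosses 0.05 in both directions.

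After nerve crush Ncam1 was at 5.32, 5.06, 4.59 and 6.73, with a mean of 5.42 ± 0.92 (SD, n = 4), against 4.14 ± 0.68 in NTg gastrocnemius. Replicate 4 stood above the other crushed arrays, and replicates 2 and 3 lay below the highest NTg array. The log2 difference of 1.28 (SE 0.56, 95% interval 0.11 to 2.45) did not pass in limma (adjusted p = 0.227, unadjusted p = 0.033). Without crush replicate 4 it was 0.84 (adjusted p = 0.466). Of the 5 members 0 were called after crush, 1 at an unadjusted p under 0.05, where 2.87% of all probe sets were called and 18% had an unadjusted p under 0.05. The direct comparison of SOD1 with crushed gastrocnemius gave 0.60 for Ncam1 (95% interval -0.57 to 1.76, adjusted p = 0.693), and 1.03 without crush replicate 4 (adjusted p = 0.3). Limma called 0% of all probe sets there, while 11.6% had an unadjusted p under 0.05; without crush replicate 4 it called 563 probe sets, and with array weights 963. Both comparisons with NTg gastrocnemius share its 4 arrays. After crush the summed macrophage markers were at 633 to 1058 against 493 to 669 in NTg gastrocnemius, with 0 called. Of 5 measured Schwann cell and nerve markers 1 was called, where 3% of all genes were. It was Mbp, which fell by 2.35 on the log2 scale (limma adjusted p = 0.0185). Pmp22, S100b, Sox10 and Ngfr had differences of -1.04, -1.31, -0.20 and 0.86 (limma adjusted p = 0.0846, 0.234, 0.762 and 0.157). The 3 satellite cell markers summed to 132 to 242 after crush, wholly below the 262 to 334 of NTg gastrocnemius, with 0 called. Within them Sdc4 had a difference of -1.04 (adjusted p = 0.112) and the dim Myf5 one of 1.57 (adjusted p = 0.171). Their part in the Ncam1 values was not tested.

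In triceps Ncam1 was at 4.40, 4.44, 4.88 and 7.15 in SOD1 mice, against 4.20, 4.90, 5.36 and 3.99 in NTg mice. SOD1 replicate 4 held the highest Ncam1 signal of all 20 arrays, and SOD1 replicates 1 to 3 lay within the NTg range. The difference of 0.60 (SE 0.56, 95% interval -0.56 to 1.77, adjusted p = 0.624) became -0.04 (adjusted p = 0.987) without SOD1 triceps replicate 4. Whether the SOD1 effect on Ncam1 differed between muscles was tested as an interaction, gastrocnemius minus triceps, which was 1.27 (SE 0.79, 95% interval -0.38 to 2.92, adjusted p = 0.658) and 1.92 without that array. Limma called 0% of all probe sets for this interaction, while 8.85% had an unadjusted p under 0.05, and 0 of the 5 members did.

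Markers of other cells were set beside the Ncam1 result, since NCAM is also carried by Schwann cells, satellite cells and natural killer cells. Of 5 measured Schwann cell and nerve markers 0 were called in SOD1 gastrocnemius, and their summed linear signal was 552 to 1404 in SOD1, against 1090 to 1496 in NTg gastrocnemius. Within them Ngfr had a difference of 0.44 (limma adjusted p = 0.412), and Mbp, Pmp22, S100b and Sox10 had -0.66, -0.25, -0.34 and -0.32. The 3 measured satellite cell markers summed to 248 to 381 in SOD1 and 262 to 334 in NTg gastrocnemius, with 0 called. The dim Myf5, which adds little to the sums, had a difference of 1.23 (limma adjusted p = 0.2), Sdc4 0.18 and Cdh15 -0.16. Ptprc, the leukocyte antigen CD45, rose 2.01-fold (log2 difference 1.01, adjusted p = 0.0342) and was the only measured gene of the 7 in the lymphocyte and natural killer cell list. Of 7 measured macrophage markers 6 rose, and their sums were 1033 to 1551 in SOD1 and 493 to 669 in NTg gastrocnemius. Of 5 fibroblast and 6 endothelial markers 0 were called. The part of these cells in the Ncam1 result was not tested, and the satellite cell gene Pax7 was not analysed here.

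Ache showed no called difference, and its group means were below those of NTg muscle in SOD1 mice and after crush. In triceps the log2 signals were 5.59, 5.46, 5.61 and 4.51 in SOD1 mice, against 5.82, 6.20, 6.16 and 6.27 in NTg mice. Every SOD1 array lay below every NTg array, which held for 2.37% of all probe sets in this comparison. The means were 5.29 ± 0.52 in SOD1 and 6.11 ± 0.20 in NTg triceps (SD, n = 4 each). The difference was -0.82 (SE 0.31, 95% interval -1.47 to -0.17), with an unadjusted p of 0.0159 and an adjusted p of 0.275 in limma, so it did not pass. Of the 5 members 0 were called in triceps, where 0.214% of all probe sets were. Without SOD1 triceps replicate 4 it was -0.56 (adjusted p = 0.685). The median log2 difference of the 12 fibre markers was -0.58, with 0 called. Their summed linear signal was 46179, 26169, 50364 and 29641 in SOD1 triceps, against 48340, 55663, 81282 and 38592 in NTg triceps. The sums of these groups overlapped. The lowest SOD1 sum was in replicate 2, where Ache was at 5.46. The lowest NTg sum was in replicate 4, where Ache was at 6.27. The part of the fibre markers in the Ache values was not tested.

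In gastrocnemius Ache was at 5.95, 5.43, 5.30 and 4.97 in SOD1 mice and 6.06, 5.79, 5.01 and 4.57 after crush, against 6.27, 5.29, 5.49 and 5.68 in NTg mice. The 3 groups overlapped, with the lowest arrays being replicate 4 of crush and of SOD1. The difference was -0.27 for SOD1 (95% interval -0.92 to 0.38, adjusted p = 0.625) and -0.33 for crush (95% interval -0.98 to 0.32, adjusted p = 0.636), or -0.06 without crush replicate 4. Between SOD1 and crush it was 0.06 (95% interval -0.59 to 0.71, adjusted p = 0.958), and the interval leaves room for differences of up to 1.63-fold. Without crush replicate 4 the difference between SOD1 and crush was -0.20 (limma adjusted p = 0.75).

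Etv5, the ETS factor, was not called in any comparison. Its log2 signals were 4.92, 4.72, 4.43 and 3.44 in SOD1 gastrocnemius and 4.88, 5.39, 4.98 and 4.08 in crushed gastrocnemius, against 4.33, 5.03, 4.99 and 5.12 in NTg gastrocnemius. Replicate 4 was the lowest array in both the SOD1 and the crushed group, and each group overlapped the controls. The differences were -0.49 for SOD1 (95% interval -1.18 to 0.20, adjusted p = 0.361) and -0.04 for crush (95% interval -0.72 to 0.65, adjusted p = 0.974). Without crush replicate 4 the crush difference was 0.22 (adjusted p = 0.805). In triceps Etv5 was at 4.15, 3.62, 4.19 and 4.21 in SOD1 mice, against 4.83, 4.41, 5.05 and 4.16 in NTg mice. Only NTg replicate 4 lay among the SOD1 arrays, and the difference of -0.57 (SE 0.33, 95% interval -1.26 to 0.11) did not pass (adjusted p = 0.432).

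Dach2, the corepressor, was likewise not called in any comparison. Its log2 signals were 4.46, 4.54, 4.27 and 4.01 in SOD1 gastrocnemius and 4.01, 4.61, 4.91 and 2.03 in crushed gastrocnemius, against 4.22, 4.20, 5.17 and 4.87 in NTg gastrocnemius. The lowest signal of Dach2 on any array, 2.03, came from crush replicate 4, and the other crushed arrays lay within or just below the NTg range. The crush difference of -0.73 (95% interval -1.65 to 0.19, adjusted p = 0.404) was -0.11 without that array (adjusted p = 0.897). In SOD1 gastrocnemius the difference was -0.30 (95% interval -1.22 to 0.62, adjusted p = 0.715). In triceps Dach2 was at 4.46, 3.93, 4.13 and 4.45 in SOD1 mice, against 4.96, 4.87, 4.16 and 4.30 in NTg mice, with overlapping groups and a difference of -0.33 (95% interval -1.25 to 0.59, adjusted p = 0.746).

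**Figure D3:**
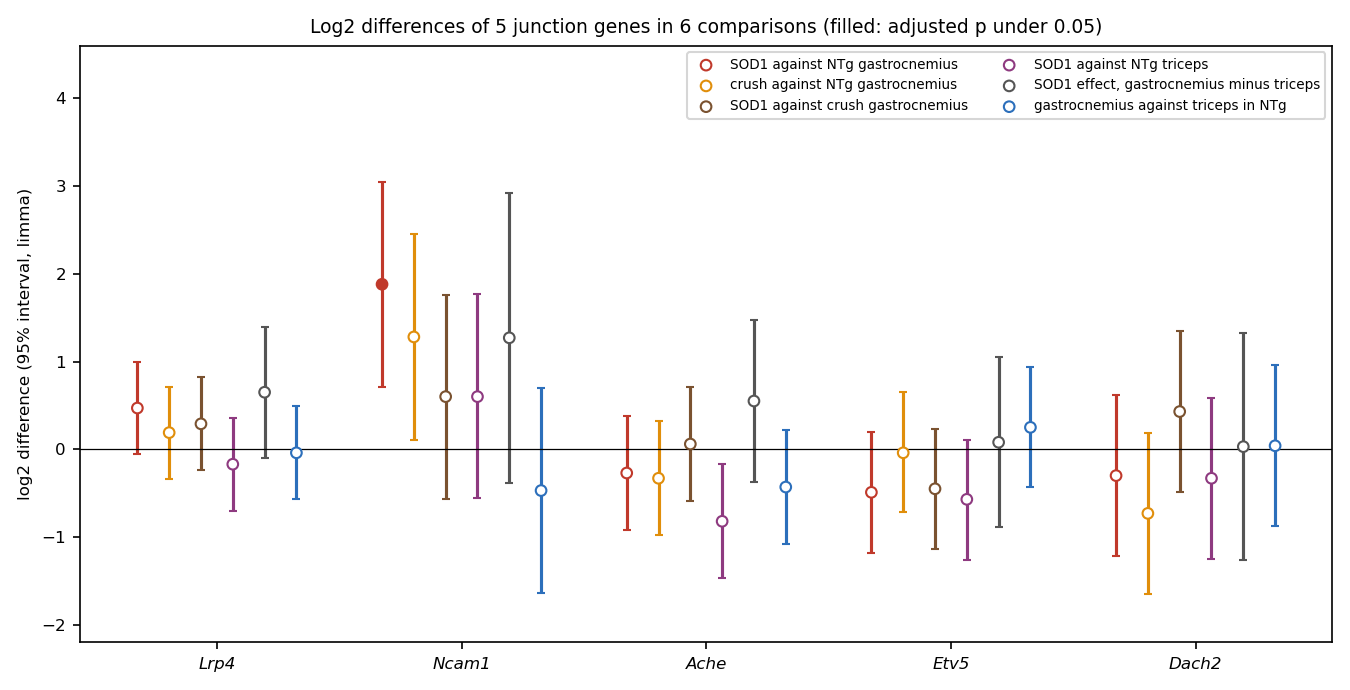
Log2 differences of the 5 genes in 6 comparisons with 95% intervals of the limma fit; filled points have an adjusted p under 0.05. The single filled point is Ncam1 in SOD1 against NTg gastrocnemius at 1.88, and apart from Ncam1 in SOD1 and after crush only Ache in triceps, at -0.82, has an interval that leaves out 0.

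Set directly against crushed gastrocnemius, SOD1 gastrocnemius differed by 0.29 for Lrp4 (95% interval -0.24 to 0.82), -0.45 for Etv5 (95% interval -1.14 to 0.23) and 0.43 for Dach2 (95% interval -0.49 to 1.35), with adjusted p of 0.672, 0.598 and 0.723. Of the 5 members 0 were called there, and 0 had an unadjusted p under 0.05. Without crush replicate 4 the Dach2 difference was -0.19 and that of Etv5 -0.71. The SOD1 effect in gastrocnemius minus that in triceps was 0.65 for Lrp4 (95% interval -0.10 to 1.39), 0.55 for Ache (95% interval -0.37 to 1.47), 0.08 for Etv5 (95% interval -0.89 to 1.05) and 0.03 for Dach2 (95% interval -1.26 to 1.33). Their adjusted p lay between 0.616 and 0.989, so a difference between the muscles was not shown for any of these 4 genes. Without SOD1 triceps replicate 4 the value for Ache was 0.29 (limma adjusted p = 0.803).

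In control mice the muscles did not differ detectably for these genes. Gastrocnemius minus triceps in NTg mice was -0.04 for Lrp4, -0.47 for Ncam1, -0.43 for Ache, 0.25 for Etv5 and 0.04 for Dach2, with adjusted p between 0.596 and 0.983, while 1.73% of all probe sets were called. The widest interval, that of Ncam1, ran from -1.64 to 0.70. By group mean Ncam1 was ordered SOD1 gastrocnemius, crush, SOD1 triceps, NTg triceps and NTg gastrocnemius. Ache was ordered NTg triceps, NTg gastrocnemius, SOD1 gastrocnemius, crush and SOD1 triceps. Places in both orders depend on replicate 4 of crush or SOD1 triceps. Without that crush array Ache was higher in crush than in SOD1 gastrocnemius (SOD1 minus crush -0.20). Without that triceps array Ncam1 was no higher in SOD1 than in NTg triceps (SOD1 minus NTg -0.04). For all 5 genes the ranges of every group and the next in order overlapped, so these orders are not resolved step by step.

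Set array by array against the denervation genes, Ncam1 and Ache ran in opposite directions. Over the 20 arrays Ncam1 had a Pearson's r of 0.81 with Chrna1, 0.85 with Myog, the myogenin gene, and 0.76 with Runx1, a transcription factor gene raised in denervated muscle. Ache had -0.76, -0.75 and -0.72 with the same genes, and r between Ncam1 and Ache was -0.67. Without crush replicate 4 and SOD1 triceps replicate 4, a choice made after seeing the data, r with Chrna1 was 0.71 for Ncam1 and -0.62 for Ache over 18 arrays. With Myog and Runx1 it was then 0.77 and 0.65 for Ncam1, and -0.60 and -0.57 for Ache. For Lrp4, Etv5 and Dach2 r with Chrna1 was 0.32, -0.53 and -0.51 over 20 arrays, and 0.39, -0.48 and -0.37 over the 18. These values describe arrays that fall into groups and share each hybridisation, and they were not tested.

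**Figure D4:**
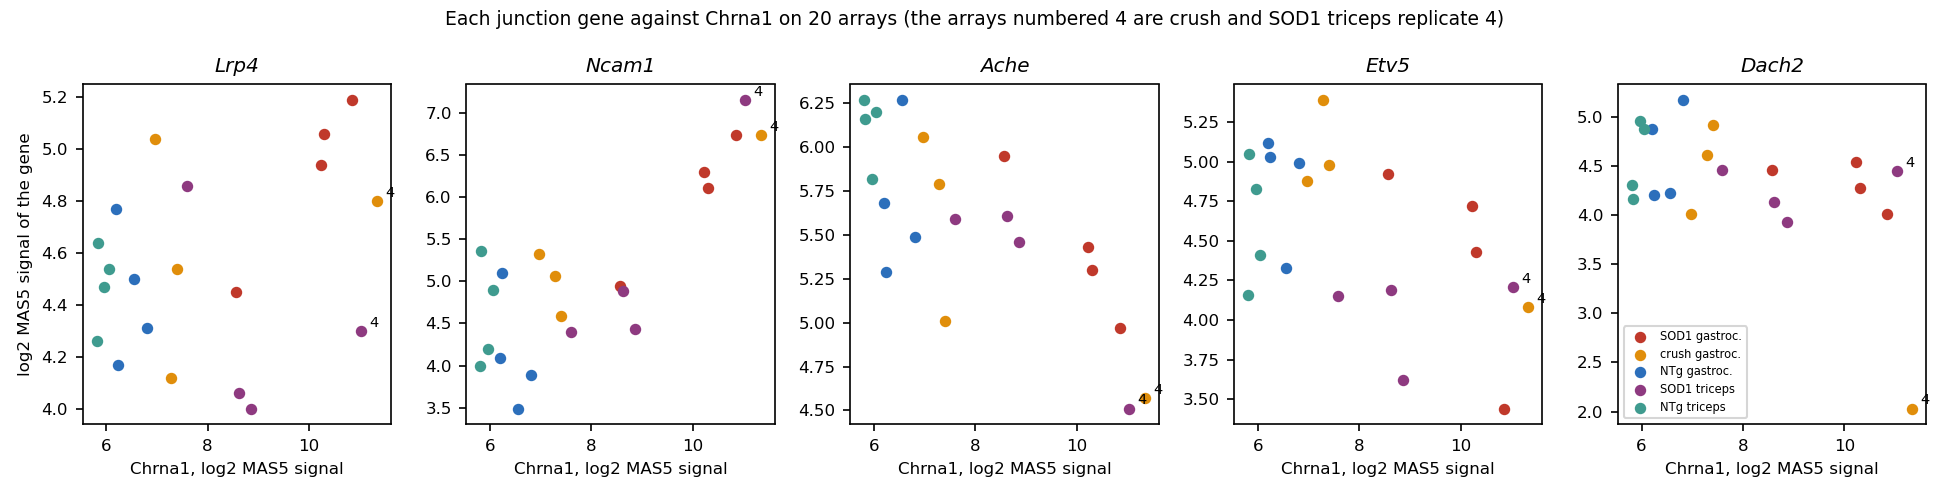
Log2 signal of each of the 5 genes (vertical) against that of Chrna1 (horizontal) on 20 arrays, coloured by group; 4 marks crush replicate 4 and SOD1 triceps replicate 4. Where Chrna1 exceeds 10, Ncam1 lies between 6.11 and 7.15 and Ache between 4.51 and 5.43.

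The 5 arrays with the highest Ncam1 signals were also the 5 with the highest signals of Chrng, the gene of the fetal receptor subunit. The Chrng values were chosen for print after they were seen, and how many other genes share these top 5 arrays was not counted. Chrng was at 5.43, 7.03, 7.41 and 7.73 in SOD1 gastrocnemius and 0.85, 2.12, 1.38 and 8.16 after crush, against 1.72, 1.40, 0.95 and 2.00 in NTg gastrocnemius. In triceps it was at 0.96, 3.56, 2.12 and 8.65 in SOD1 mice, against 0.59, 0.81, 1.87 and 0.28 in NTg mice. Crush replicates 1 to 3 stayed near the NTg level, and replicate 4 lay above all SOD1 gastrocnemius arrays.

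By Pearson's r over the 20 arrays the genes most like Ncam1 were Coprs (0.94), Atp6v1e1 (0.92) and Fggy (0.92). Those most like Ache were Apbb2 (0.82), Golm1 (0.81) and Dnmt3a (0.79), and those most like Lrp4 were Dctn4 (0.71), Vipas39 (0.69) and Zmym4 (0.68). For Etv5 they were Cyc1 (0.87), Ndufb9 (0.86) and Slc25a3 (0.86), and for Dach2 Rbm38 (0.88), Crim1 (0.81) and Tmem218 (0.81). Each is the highest over all 6603 genes and is a description only.

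The other genes of the junction pathways were taken from 8 lists with 91 genes, of which 56 had a single-symbol probe set; the probe set with the highest mean stood for the gene. The lists were chosen with earlier results of these data known, so their counts are a description. In SOD1 gastrocnemius 12 of the 56 rose and 0 fell, where 9.45% of all 6603 genes were called, 358 higher and 266 lower. Without SOD1 replicate 1 it was 13 and 1, and without crush replicate 4, which enters through the shared spread, 14 and 1. The share of all genes called was then 13.6% and 13.9%. Of 4 receptor subunits 3 rose, with a median log2 difference of 2.64 against 0.03 over all genes. Chrng rose 41.6-fold over a dim NTg mean of 1.52, Chrna1 11.6-fold and Chrnb1 3.35-fold, while Chrne, the adult subunit, had a difference of -0.43 (adjusted p = 0.28).

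On the side of agrin and MuSK, 1 of 8 measured genes rose in SOD1 gastrocnemius, where 9.45% of all genes were called. It was Dvl1, a dishevelled protein that binds MuSK (1.37-fold, adjusted p = 0.0354). Rapsn, the rapsyn gene, had a difference of 0.21 in SOD1 gastrocnemius (adjusted p = 0.562) and -0.61 after crush (adjusted p = 0.123). Without crush replicate 4 Rapsn fell after crush by the same test. It was then the only called gene of the 56, where 3.67% of all genes were called. In SOD1 gastrocnemius, beside the same 9.45% of all genes, 2 of the 11 genes around neuregulin and ETS factors rose. They were Erbin, which binds the receptor ERBB2 (2.21-fold, adjusted p = 0.0194), and Ets2, an ETS factor (1.69-fold, adjusted p = 0.0278). Of the 9 genes of the HDAC and myogenin axis 4 rose: Runx1, Myog 9.48-fold, and the myogenic factors Myod1 4.37-fold and Myf6 2.46-fold. Runx1 was dim in NTg gastrocnemius, at 2.39 to 4.01, so its 14.1-fold rise, like that of Chrng, has an unstable size. Hdac5, a class II deacetylase, had a difference of -0.39 (adjusted p = 0.178).

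Of 10 measured adhesion genes other than Ncam1, 0 were called, where 9.45% of all genes were. Their median difference was 0.15, and Itga7, the laminin-binding integrin of muscle, had 0.43 (adjusted p = 0.0775). Of the 5 polysialylation genes and partners of NCAM 0 were called. The polysialyltransferases St8sia2 and St8sia4 had 0.66 and 0.64 (adjusted p = 0.127 and 0.129), and Fyn, a kinase that binds NCAM, 0.91 (adjusted p = 0.0636). Of 7 scaffold genes 2 rose, Macf1, a linker of microtubules and actin (2.36-fold), and Utrn, the utrophin gene (1.58-fold). The 2 genes measured among the anchors of cholinesterase, Hspg2, which encodes perlecan, and Dag1, the dystroglycan gene, had -0.25 and -0.22 (adjusted p = 0.466 and 0.366).

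After crush 0 of the 56 genes were called, where 3% of all genes were, and in SOD1 triceps 0 of 56, where 0.273% were. The receptor subunits had a median difference of 1.30 after crush and 2.20 in SOD1 triceps. Both medians include replicate 4 and were not computed without it. Chrnb1 was at 9.16 in crush replicate 4 and 6.52 to 7.03 in crush replicates 1 to 3. In SOD1 triceps Chrnb1 was at 9.18 in replicate 4 and 7.11 to 7.53 in replicates 1 to 3. Chrna1 and Chrng were likewise highest in replicate 4 of both groups, and Chrne was lowest there. Without crush replicate 4 the count of called genes in SOD1 triceps was 6 higher: Chrna1, Chrnb1, Ets2, Myf6, Myog and Runx1, where 1.64% of all genes were called. That array lies outside this comparison and enters through the shared spread. Without SOD1 triceps replicate 4, which lies inside it, the count was 0, where 0.0606% of all genes were called. For SOD1 against crushed gastrocnemius the count was 0 with all arrays, as for all genes, and 9 higher without crush replicate 4, where 5.63% of all genes were called. In NTg mice 1 of the 56 differed between the muscles, the integrin gene Itgb1, higher 1.89-fold in gastrocnemius than in triceps (adjusted p = 0.0423), where 0.954% of all genes were called.

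**Figure D5:**
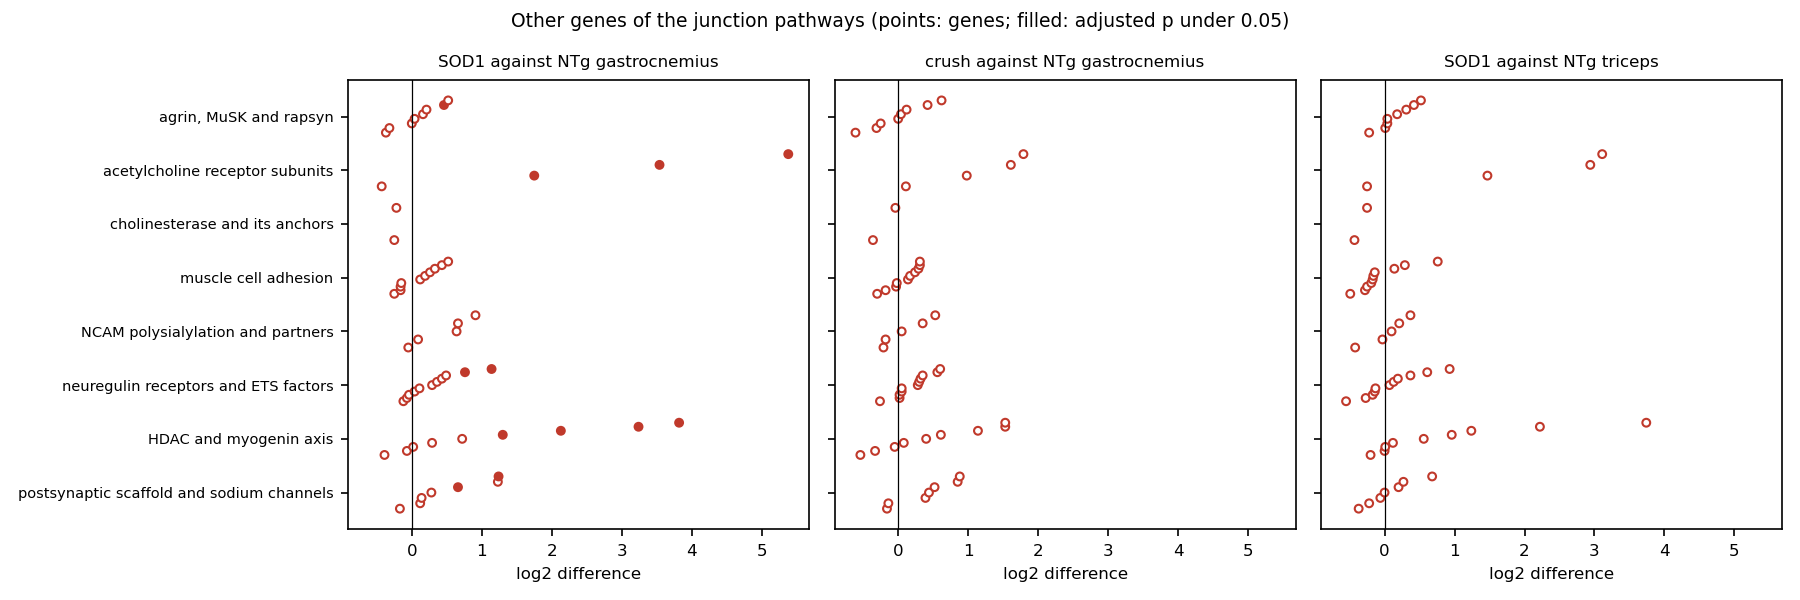
Log2 differences of 56 other genes of the junction pathways, by list, in 3 comparisons with NTg muscle; each point is a gene and filled points have an adjusted p under 0.05. The 12 filled points are all in SOD1 gastrocnemius, 3 of them receptor subunits and 4 of them in the HDAC and myogenin axis.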

How the data were processed

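The authors deposited log2 signals of 10748 probe sets on 20 arrays. The submitters' processing notes name MAS5, and the sources used here do not give its version, target level or filters. Trizol extraction and column purification preceded labelling, per the labels' protocols. The values run from -3.66 to 13.3 and were used without further scaling. Groups came from the titles. The titles call the arrays biological replicates, and their number, 4 a group, limits the precision.

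In R 4.3.3, limma 3.58.1 fitted 5 group means to every probe set over the 20 arrays (lmFit, then eBayes with trend; 15 residual degrees of freedom), with Benjamini-Hochberg adjustment in each of 6 comparisons. No filter on dim probe sets was used, because all 5 members lie below the 30% mark. Gene symbols came from the platform annotation, updated by gene ID through RefSeq (GRCm38.p6), which also gave the promoter windows. The fit was tested on simulated data. Genes and lists were chosen with earlier results of these data known. All probe sets of the 5 genes are named, with up to 4 called genes of each pathway list per comparison and the 3 genes most like each member; uncalled list genes, single marker genes and the arrays' values of Chrna1 and Chrng were chosen after their values were seen. Alternatives were other scalings, a filter, a floor at 5, a fit on the compared arrays, the replicate block, a random block that assumes equal replicate numbers within a genotype to be 1 mouse, no trend, array weights and leaving out each array. Figures were drawn with matplotlib 3.10.9.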

Additional observations from a re-analysis of the deposited data

Results flagged for a closer look

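Among 25 sets of 4 arrays (5 genes in 5 groups), 3 held an array far from the other 3 by Dixon's test at the 95% level, which chance gives in about 1 of 20. Ache was at 4.51 in SOD1 triceps replicate 4, against 5.46 to 5.61 in the other SOD1 triceps arrays. Etv5 was at 3.62 in SOD1 triceps replicate 2, the array with the lowest summed signal of fibre markers (26169). Etv5 was at 4.33 in NTg gastrocnemius replicate 1, against 4.99 to 5.12 in the other 3. Ncam1 at 7.15 in SOD1 triceps replicate 4 came just short of the critical ratio, at 0.823.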

How the results depend on the processing

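Of 820 values of the 5 genes under alternatives, 772 kept their direction and side of the threshold, 8 lost the call of Ncam1 in SOD1 gastrocnemius and 40 changed sign, 0 of them called. The number of members called in SOD1 against NTg gastrocnemius was 0 in place of 1 with a floor at 5 and with no trend, and ran from 0 to 1 over the arrays left out; in the other 5 comparisons it was 0 throughout. Sign changes were confined to uncalled values. For Etv5 after crush the difference was 0.06 with the floor and 0.16 with array weights. For Ache in SOD1 against crush it was -0.04 with the floor and -0.15 with array weights, and for Dach2 -0.02 with array weights. For the SOD1 effect in gastrocnemius minus triceps, Etv5 was at -0.05 with quantile normalization and -0.02 with the floor, and Dach2 at -0.06 and -0.04. For gastrocnemius against triceps in NTg mice, Dach2 was at -0.10 with quantile normalization and -0.01 with array weights. With arrays left out, the ranges that crossed 0 were -0.04 to 0.88 for Ncam1 in SOD1 triceps, -0.22 to 0.22 for Etv5 after crush, -0.20 to 0.29 for Ache and -0.19 to 0.77 for Dach2 in SOD1 against crush, -0.10 to 0.39 for Etv5 and -0.11 to 0.22 for Dach2 in the interaction, and -0.15 to 0.05 for Lrp4 and -0.14 to 0.18 for Dach2 between the muscles of NTg mice. The cause was not tested.

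Over all probe sets the count for SOD1 against NTg gastrocnemius was 981, and 1994 on the compared arrays alone, 2809 with array weights and 184 to 1460 with an array left out. Replicate numbers were used for no pairing, since in no pair of groups did all 4 same-numbered pairs of arrays have a correlation of deviations above 0.1. These were -0.102 to 0.0227 for SOD1 and NTg gastrocnemius. Some were high: 0.456 (replicate 1) and 0.541 (replicate 4) for the muscles of SOD1 mice, 0.26 and 0.332 for SOD1 and crushed gastrocnemius, 0.425 for crush and SOD1 triceps replicate 4, and 0.108 to 0.13 for replicates 1 to 3 of the NTg muscles, with -0.0746 for replicate 4. With the replicate block the count was 1454 and Ncam1 kept its call (adjusted p = 0.0182). Of the 56 pathway genes the block called 12 higher and 1 lower in SOD1 gastrocnemius, 4 higher in SOD1 triceps and 3 higher after crush, where the fit without it called 12, 0 and 0. Of all 6603 genes the block called 13.7%, 1.14% and 4.5% in these comparisons, and the fit without it 9.45%, 0.273% and 3%. A random block that assumes equal numbers within a genotype to be 1 mouse, which no label states, was run for the interaction and for the muscles of NTg mice alone; 0 members were called in both, as without it. No member passed the 30% filter, so that alternative gave no value, and each gene had 1 probe set, so the mean over probe sets was the same value. The dimness of these probe sets limits every fold change given here.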
